A study of Homo sapiens with 29 samples.

Results

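Expression along 1 complete cardiac induction of HuES6, a widely used line of human embryonic stem cells, was followed on Illumina bead arrays, and its late days (5, 6 and 8) were compared with its early days (1, 2 and 3). Day 4 lay between these windows. The comparison covered every gene whose probe was detected (detection p under 0.01) on at least 3 of the 7 arrays of the course, which gave 11139 of the 20046 genes with a probe. Of these, 9085 were detected on all 7 arrays and 479 on exactly 3, and a further 602 genes detected on exactly 2 were left out.

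The course, called FBW, started on day 0 with BMP4 at 1 ng/ml, the WNT-activating compound CHIR00921 at 1 uM and FGF2 at 10 ng/ml. IWP-2, an inhibitor of WNT secretion, was given at 2 uM on days 2 and 3, and insulin was absent from day 1. In the partial arms FB lacked the WNT activator, BW lacked FGF2 and FW lacked BMP4. All 4 arms used a medium free of serum and albumin on Matrigel, and per the labels all received IWP-2. Each arm had 1 array on each of the 7 days, and undifferentiated cells of day 0 gave 1 more, 29 in all. The labels describe the FBW arrays of days 3 and 6 as shared with another series, so counts are also given without those days.

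The p-values come from limma fits in which the 3 days of a window stand as repeats. They measure how steady a difference was over the days of 1 course and not the variation between differentiations. Relatedness of neighbouring days can make them too small, and a trend inside a window can make them too large. Which of these prevailed was not tested. A gene was called at a Benjamini-Hochberg adjusted p under 0.05. Signals are normalised log2 values, means carry an SD over the 3 arrays of a window, and the SE belongs to the late minus early difference. The 7 arrays detected between 16746 and 18796 of 47323 probes, and their number limits the precision. Where a gene was detected on no array of a window, its fold is given as a lower bound set by the dimmest detected probes. Such a gene passed the detection filter through its other days and had to differ, so its call is no support. In bulk arrays fewer cells of a type and less RNA per cell cannot be told apart.

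As background, human embryonic stem cells directed to the heart first leave the pluripotent state and pass through a primitive streak stage, marked by T-box factors such as TBXT and EOMES. Mesoderm then activates a cardiac transcription factor network around NKX2-5, GATA4, TBX5 and MEF2C, which precedes sarcomere assembly. WNT signalling promotes the streak stage, while its inhibition afterwards favours the cardiac fate.

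Late and early days differed in 1566 of the 11139 genes, or 14.1%. There were 856 genes called higher late (7.68%) and 710 called lower (6.37%). The higher group had a median change of 1.48 on the log2 scale and the lower group one of -1.16, while the median over all genes tested was -0.02. Large changes were mostly increases: 265 genes were higher by at least 2 log2 units and 98 were lower by as much, and at 4 units the counts were 53 and 11. Windows did not overlap in 2218 genes with all late days above all early days (19.9%) and in 2572 with all late days below (23.1%), and every called gene was among them. The number of calls depended on single arrays. It was 543 without days 3 and 6, and leaving out 1 day gave 877 without day 1, 289 without day 2, 2578 without day 3, 1131 without day 5, 158 without day 6 and 416 without day 8. All 1566 kept their sign without days 3 and 6, which was fixed in advance because their windows did not overlap. Of the 108 called genes that the naming rule picked, 45 lost the call without days 3 and 6, 77 without day 6 alone and 66 without day 2. Those still called both without days 3 and 6 and without day 6 numbered 33, among them MYH6, ACTC1, NKX2-5, TBX2, SMYD1, SMPX, TECRL, CD34, CDH5, COL3A1, EOMES and ZIC2. Called under every one of the 20 alternatives in which they were tested were 11: ACTC1, ATP1B2, BAMBI, BMP5, COL3A1, ENO3, MYH6, SMYD1, TGFB2, WNT2 and ZIC2. Of the genes named here, MYH6, NKX2-5, SMPX, TECRL, CD34, CDH5, COL3A1, TGFB2, WNT2 and EOMES were detected on no array of 1 window. They had to differ, so their calls under these alternatives are no support.

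Some genes passed from undetected to detected between windows. On all 3 late arrays but on no early array 265 genes were detected, 120 of them also on day 4 and 57 on day 0. The opposite pattern held for 99 genes, of which 82 were detected on day 0. Such genes entered the table through 1 window and had to differ, so these numbers describe the table only. Relative to day 0, 576 of the 856 higher genes stayed within 2-fold of it early and were at least 2-fold above it late, while 26 were at least 2-fold below day 0 early and came back within 2-fold late. Among the 710 lower genes, 353 stayed within 2-fold of day 0 early and were at least 2-fold below it late. Another 25 were at least 2-fold above day 0 early and within 2-fold of it late, among them the streak genes CDX2, WNT3A, WNT8A and SP5.

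The steps between neighbouring days were larger before day 3 than after. From day 1 to day 2, 687 genes were at least 2-fold higher and 409 at least 2-fold lower, together 10.4% of genes detected on either array. The share was 8.25% from day 2 to 3, 4.84% from day 3 to 4, 5.1% from day 4 to 5 and 2.8% from day 5 to 6. Over the last step, which spans 2 days, 194 genes were higher and 305 lower (4.55%), the only step after day 1 in which decreases outnumbered increases. At 4-fold the order of the first steps turned, with 170 genes from day 1 to 2 and 221 from day 2 to 3, and under quantile normalisation without background correction the 2-fold counts were 412 and 411. These steps compare single arrays and have no replicate check.

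**Figure D1:**
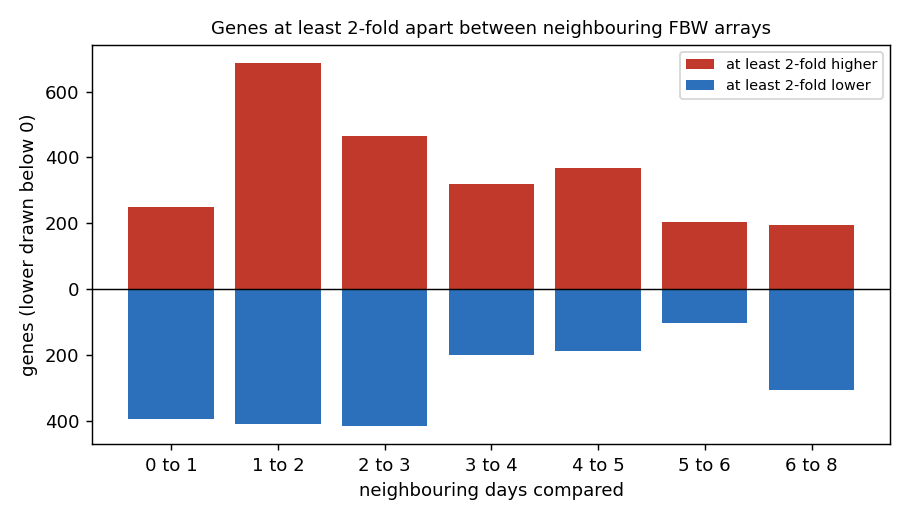
Number of genes at least 2-fold higher (red) or lower (blue, drawn downward) between neighbouring arrays of the FBW course, among genes detected on either array. The tallest bars stand at day 1 to 2 (687 higher, 409 lower), and the smallest total is at day 5 to 6 (205 higher, 102 lower).

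Streak and stem cell regulators led the genes that fell. EOMES, a T-box factor of the primitive streak, gave 11.68, 12.42 and 10.03 on days 1, 2 and 3, 6.15 on day 4, and 4.84, 4.54 and 4.47 on days 5, 6 and 8. Its late signals were at background, at least 84.9-fold below the early mean (adjusted p = 0.00243). ZIC2, a zinc finger factor of stem cells and neural tissue, stood at 12.05, 12.89 and 10.59 early, 7.98 on day 4, and 5.83, 4.79 and 4.91 late. That was a 102-fold lower mean (log2 change -6.67, SE 0.59, adjusted p = 0.00285). POU5F1, a core pluripotency factor, declined across the whole course, from 11.00, 10.56 and 8.48 through 7.43 to 5.40, 4.74 and 4.55 (-5.11, SE 0.65, adjusted p = 0.00834). The windows of all 3 genes were well apart, and their day 4 signals lay between them.

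Of 31 pluripotency genes, 18 were detected on enough arrays and 7 fell, with a list median of -1.30. The 7 include ZSCAN10 at -4.10, L1TD1, an RNA-binding protein, at -3.37, ZFP42 at -2.96 and the DNA methyltransferase DNMT3B at -2.20. NANOG and SOX2 were detected on 2 of the 7 arrays and so were not tested. The remaining 11 did not pass, among them the RNA-binding protein LIN28A at -0.99 and the surface protein PODXL at 0.81. The count was 5 without days 3 and 6 and 1 without day 6.

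Among 16 detected primitive streak genes 8 fell, 0 rose, and the median change was -2.91. Of the 16, 7 were detected on no late array and so had to differ: TBXT and the called EOMES, SP5, WNT3A, WNT8A, CDX1 and CDX2. The called members detected in both windows were MIXL1 and WNT3. MIXL1, a streak homeobox factor, had 11.85, 11.53 and 8.26 early, 5.13 on day 4, and 5.61, 5.63 and 6.97 late (-4.48, SE 0.96, adjusted p = 0.0312). CDX2, a caudal homeobox factor, went from 8.89, 9.75 and 6.02 to signals at background from day 4 on, at least 9.5-fold lower (adjusted p = 0.0395). WNT3A, a WNT ligand of the streak, peaked on day 2 at 10.24 between 7.04 and 7.00, and was at background from day 4, at least 8.72-fold lower (adjusted p = 0.0338). WNT8A followed the same course, with 6.53, 9.12 and 7.39 early. The called members had a median day 4 position 91.3% of the way from the early to the late mean. TBXT had the second largest difference of the list and missed the threshold: it was 11.67, 12.31 and 5.81 early and between 4.21 and 4.43 from day 4 on (adjusted p = 0.0598). MESP1, a factor of cardiac mesoderm, was 8.57, 12.21 and 10.40 early and 7.62, 7.20 and 7.74 late (adjusted p = 0.0616). In both genes the windows did not overlap and the early days varied widely, with an SD of 3.58 for TBXT. Calls in the streak list numbered 7 without days 3 and 6 and 1 without day 6.

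Other leading fallers encode secreted or metal-binding products. GAL, the neuropeptide galanin, was 12.20, 12.64 and 8.84 early, 6.10 on day 4 and 5.38, 4.42 and 4.64 late (-6.41, SE 0.96, adjusted p = 0.0133). NTS, neurotensin, reached 13.59 on day 2 and lay between 6.04 and 6.85 from day 4 on (-5.34, SE 1.00, adjusted p = 0.0225). MT1G, a metallothionein, had 10.78, 8.34 and 8.16 early and 4.40, 4.40 and 4.64 late, at least 17.4-fold lower (adjusted p = 0.0125). These 3 signals had most of their decline behind them on day 4, at 79.9%, 99.2% and 71.9% of the way. SFRP2, a secreted WNT antagonist, fell from 11.48, 9.12 and 6.66 to 4.56, 4.29 and 4.54, at least 17.3-fold (adjusted p = 0.0387). CYP26A1, which breaks down retinoic acid, was 9.18, 12.56 and 9.19 early, 8.48 on day 4 and 6.40, 5.25 and 5.47 late (-4.60, SE 0.92, adjusted p = 0.0265), and its other detected probes gave -2.77 and -3.40. PMAIP1, a pro-apoptotic p53 target, declined on every day, from 9.95 on day 1 through 5.88 on day 4 to 4.51 on day 8, at least 11.0-fold between windows (adjusted p = 0.0243).

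Of 14 detected WNT target genes 5 fell and 2 rose, and without day 6 these counts were 0 and 2. Among all genes tested 6.37% were called lower and 7.68% higher. SP5 and APCDD1 were detected on no late array and so had to differ. SP5, a direct WNT target, was 10.58, 9.70 and 6.84 early and at background late, at least 16.8-fold lower (adjusted p = 0.0306). APCDD1, a WNT feedback inhibitor, gave 6.77, 6.45 and 6.07 early and 4.47, 4.84 and 4.93 late, at least 2.75-fold lower (adjusted p = 0.0118). AXIN2, another feedback inhibitor, had a change of -1.32 (SE 0.31, adjusted p = 0.0395). TNFRSF19 rose in the same list, from 5.83, 6.10 and 6.96 to 9.29, 9.72 and 10.02 (3.38, SE 0.34, adjusted p = 0.00381). BAMBI, a pseudoreceptor that dampens TGF-beta family signals and is a target of both WNT and BMP, moved from 11.57, 11.75 and 11.58 through 12.58 to 13.22, 13.60 and 13.60 (1.84, SE 0.14, adjusted p = 0.00156).

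In the list of WNT ligands, receptors and antagonists 3 of 22 rose and 4 fell, where 7.68% were called higher and 6.37% lower among all genes tested. WNT2, a ligand known from the developing heart, was at background on days 1 to 3, 5.93 on day 4 and 7.40, 8.63 and 9.61 late, at least 11.2-fold higher (adjusted p = 0.00767). The ligands WNT3, WNT3A and WNT8A fell, while WNT5A and WNT5B were not called (0.08 and -1.46). Of the list, 6 were detected on no array of 1 window, WNT2, WNT3A, WNT8A and SFRP2 among them, and so had to differ. Without day 6, 1 was called higher and 0 lower.

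Of 20 BMP pathway genes 5 rose and 0 fell, and 2 rose without day 6. BMP5, a ligand, was 4.69, 4.86 and 6.30 early, 9.65 on day 4 and 11.13, 11.29 and 10.98 late (5.85, SE 0.42, adjusted p = 0.00139). ID2, a target of BMP signalling that blocks other transcription factors, had 10.47, 8.85 and 10.50 early and 11.86, 11.94 and 12.11 late (2.03, SE 0.44, adjusted p = 0.0315). ID1 and ID3 gave -0.17 and 0.51 and were not called. Among 19 FGF and ERK pathway genes 4 fell and 0 rose, and without day 6 the lower count was 0. The share called lower among all genes tested was 6.37%. FGFR4, a receptor, declined from 7.97, 7.13 and 6.52 to 5.18, 5.14 and 4.53 (-2.26, SE 0.39, adjusted p = 0.0192), and the ERK feedback gene DUSP6 had 1.86 without a call. Of 12 detected NODAL pathway genes 0 were called by limma, 3 had an unadjusted p under 0.05, and 2 were called higher without days 3 and 6.

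Cardiac transcription factors rose at different times. Of 36 detected members 15 rose, 0 fell, and the median change was 1.64. Of the 36, 7 were detected on no array of 1 window, NKX2-5, MEF2C, HAND2 and TBX5 among them, and so had to differ. NKX2-5, a homeobox factor of cardiac progenitors, was at background on days 1, 2 and 3, 5.87 on day 4, and 10.02, 10.92 and 12.10 late, at least 62.1-fold higher (adjusted p = 0.00139). TBX2, a T-box factor of heart regions that do not form working chamber muscle, was 4.19, 4.18 and 5.83 early, 9.29 on day 4 and 10.01, 10.82 and 10.51 late (5.71, SE 0.48, adjusted p = 0.00243). SMYD1, a muscle methyltransferase needed for sarcomere assembly, had 4.26, 4.41 and 5.58 early, 8.77 on day 4 and 11.13, 10.59 and 11.53 late (6.33, SE 0.41, adjusted p = 0.0009). The called members had a median day 4 position of 63.4%, from 22.7% in NKX2-5 to 79.7% in TBX2 among these 3.

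Other members of the network also rose. MEF2C moved from background through 6.86 on day 4 to 8.38, 8.67 and 8.44, at least 10.9-fold (adjusted p = 0.000227). HAND2 was at least 12.6-fold higher late, GATA4 5.80-fold and TBX5 at least 1.95-fold, all called. HAND1, a factor of cardiac mesoderm, was not called and was high from day 2 on: it gave 6.40, 12.12 and 13.70 on days 1, 2 and 3 and 12.16, 13.08 and 13.12 late (2.04, SE 1.72, adjusted p = 0.43). ISL1, a progenitor factor, was 5.37, 6.59 and 10.62 early and 11.06, 10.98 and 9.67 late (adjusted p = 0.141). PDGFRA, a receptor on cardiac mesoderm, had the same form with 4.25, 10.32 and 11.98 early and 12.31, 11.74 and 10.55 late (adjusted p = 0.335). Of the cardiac transcription factors, 12 were called without days 3 and 6 and 9 without day 6.

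**Figure D2:**
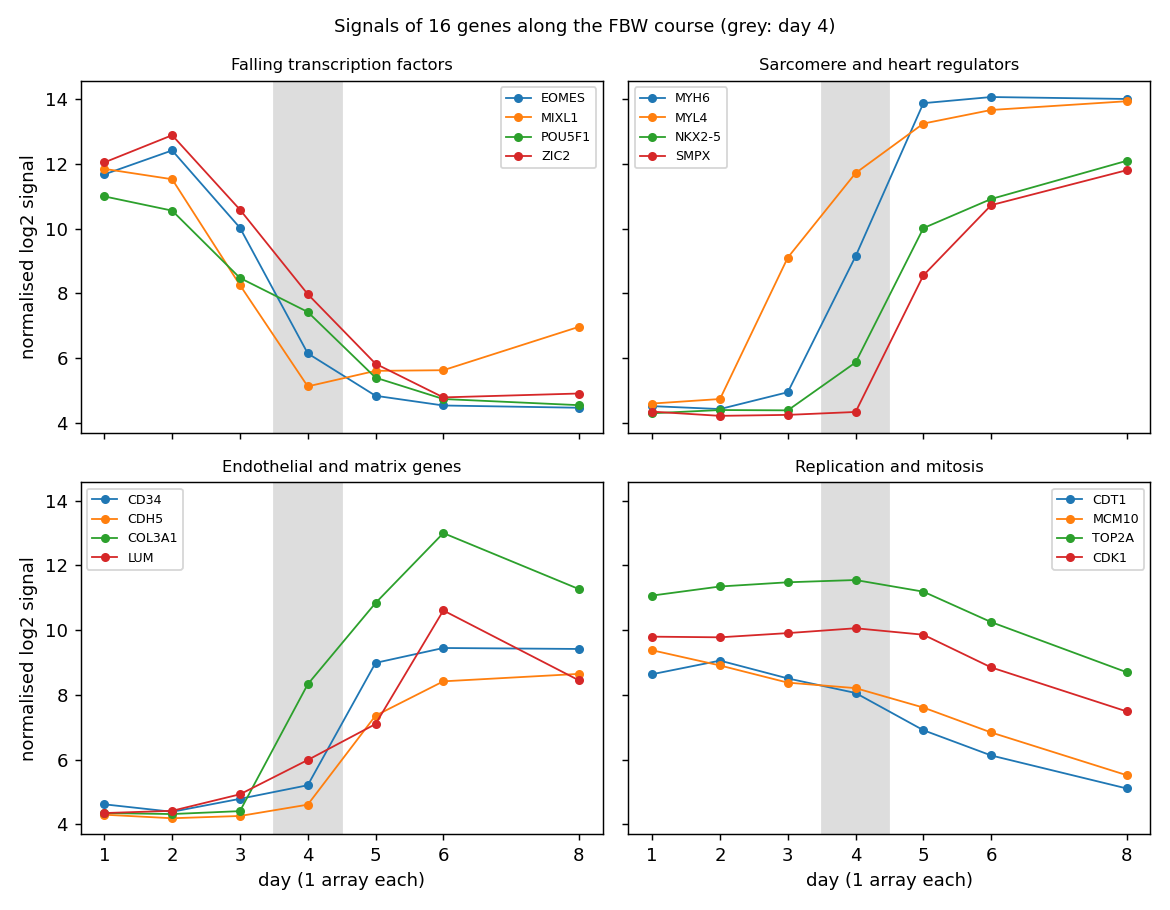
Normalised log2 signal of 16 genes on each day of the FBW course, 1 array per point, with day 4 in grey. EOMES and ZIC2 decline after day 2, MIXL1 and POU5F1 are highest on day 1, MYL4 is up by day 3 and SMPX only from day 5, CD34 and CDH5 rise between days 4 and 5, and TOP2A and CDK1 stay level through day 5 while CDT1 and MCM10 decline.

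The largest fitted increases of the course were in sarcomere genes, MYH6 and MYL4. MYH6, the atrial myosin heavy chain, was at background at 4.52, 4.43 and 4.95 early, 9.15 on day 4, and 13.88, 14.07 and 14.01 late. This was at least 489-fold higher (adjusted p = 5.71e-06), and since MYH7 is nearly identical in sequence its probe may report both. ACTC1, cardiac actin, had 6.35, 7.10 and 8.31 early, 10.87 on day 4 and 13.92, 14.00 and 14.00 late (6.72, SE 0.45, adjusted p = 0.00106). MYL4, an atrial myosin light chain, was up a day earlier, with 4.60, 4.74 and 9.11 early, 11.72 on day 4 and 13.25, 13.67 and 13.94 late (7.47, SE 1.15, adjusted p = 0.0144), and another detected probe of it gave 3.17. MYL7, the other atrial light chain, rose from 4.52, 6.87 and 8.54 through 10.35 to 12.11, 13.13 and 13.77 (6.36, SE 0.97, adjusted p = 0.0143). SMPX, a small protein of muscle costamere and sarcomere, came last: it was at background from day 1 to day 4 and 8.56, 10.73 and 11.81 late, at least 39.7-fold higher (adjusted p = 0.00768), with 3.63 at another probe.

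Of 13 detected thick filament genes 9 rose and 0 fell, with a median of 4.26. Of 14 thin filament genes 7 rose and 1 fell, with a median of 2.04. In these lists 5 and 3 genes, MYH6 and SMPX among them, were detected on no array of 1 window and so had to differ. TNNC1, the cardiac troponin C, moved from 5.50, 5.72 and 6.29 through 6.87 to 10.08, 11.79 and 12.58 (5.65, SE 0.61, adjusted p = 0.00475). The member that fell was TNNT1, the slow skeletal troponin T, from 5.91, 7.20 and 7.38 to 5.26, 4.97 and 4.82 (-1.81, SE 0.40, adjusted p = 0.0334). MYL3, a ventricular light chain, and MYOM1, an M-band protein, had changes of 4.46 and 4.26 without a call. Without days 3 and 6 the higher counts were 6 and 5, and without day 6 they were 3 and 5.

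Z-disc and costamere genes, anchor the filaments and tie them to the membrane. Of 20 detected members 16 rose and 0 fell, with a median of 2.72. Of the 20, 8 were detected on no array of 1 window, SYNPO2L and ACTN2 among them, and so had to differ. SORBS2, an adaptor at the Z-disc, was 4.27, 4.36 and 5.20 early, 5.71 on day 4 and 7.72, 9.06 and 11.03 late (4.66, SE 0.79, adjusted p = 0.0175). SYNPO2L was at background early, 5.54 on day 4 and 8.07, 9.14 and 9.13 late, at least 13.2-fold higher (adjusted p = 0.00139). ACTN2, the Z-disc alpha-actinin, was not detected through day 4 and gave 6.79, 8.07 and 9.00 late, at least 7.45-fold higher (adjusted p = 0.0118). The median day 4 position of the called members was 25%, against 33.8% in the thin filament, 45% in the thick filament and 63.4% in the cardiac transcription factors. The lists overlap widely, and some called members stood outside the span between their window means. DSP of the Z-disc list stood at 92% and SMPX of the thick filament list at 1.1%. HEY1 of the cardiac transcription factors stood at 130.4% and TTN of the thick filament list at -13.7%. The order of the medians was not tested. Leaving out days 3 and 6 left 7 Z-disc calls, and leaving out day 6 left 5.

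Promoters of these genes are shown because most of the group rose together. RefSeq sequences (GRCh38.p14) of 250 bases before the start to 50 after were at hand for 22 of the 32 called thick filament, thin filament and Z-disc genes, and both strands were searched. A CArG box, the site of serum response factor, was found in 13.6% of the 22 (3 genes) against 1.29% of all 27305 promoters and 1.19% of those of all genes tested. A MEF2 site was found in 18.2% (4 genes) against 3.09% and 1.42%. Among all genes called higher the CArG box was in 2.69% and the MEF2 site in 3.44%. TATAAA was present in 18.2% against 12.0%, CAGCTG in 18.2% against 17.7%, CCAAT in 31.8% against 35.7%, TTTGAA in 13.6% against 15.4%, GATAAG in 4.55% against 6.36% and CACGTG in 4.55% against 7.43% of all promoters. Over all genes tested these shares were, in the same order, 5.49%, 16.5%, 37.2%, 9.86%, 3.85% and 10.4%. A match is a description of letters and not a site of binding. The 250 bases before the start follow for 4 genes, picked after their values were seen, with only the matches named here in capitals. In ACTC1 (chr15:34795550-34795799, minus strand) they mark a CArG box 109 bases and TATAAA 31 bases before the start, in MYL7 (chr7:44141333-44141582, minus strand) a CArG box 61 bases before it, and in SMPX (chrX:21758117-21758366, minus strand) and XIRP1 (chr3:39192596-39192845, minus strand) a MEF2 site 93 and 111 bases before it.
ACTC1: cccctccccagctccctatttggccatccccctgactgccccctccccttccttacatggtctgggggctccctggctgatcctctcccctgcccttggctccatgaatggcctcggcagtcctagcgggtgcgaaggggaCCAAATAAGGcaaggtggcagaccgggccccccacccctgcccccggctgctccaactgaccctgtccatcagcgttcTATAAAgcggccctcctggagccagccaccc
MYL7: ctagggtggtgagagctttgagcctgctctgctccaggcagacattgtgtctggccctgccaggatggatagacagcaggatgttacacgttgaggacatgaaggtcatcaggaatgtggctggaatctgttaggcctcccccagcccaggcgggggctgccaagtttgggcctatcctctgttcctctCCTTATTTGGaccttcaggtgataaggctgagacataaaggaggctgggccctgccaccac
SMPX: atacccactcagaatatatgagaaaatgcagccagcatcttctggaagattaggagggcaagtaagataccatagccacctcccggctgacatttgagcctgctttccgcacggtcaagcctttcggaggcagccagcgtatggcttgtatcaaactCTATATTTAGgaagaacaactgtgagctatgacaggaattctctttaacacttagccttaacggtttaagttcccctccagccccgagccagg
XIRP1: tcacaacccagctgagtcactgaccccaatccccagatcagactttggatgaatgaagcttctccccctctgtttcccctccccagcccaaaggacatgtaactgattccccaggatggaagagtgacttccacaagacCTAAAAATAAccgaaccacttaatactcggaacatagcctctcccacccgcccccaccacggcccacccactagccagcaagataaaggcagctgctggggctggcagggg
XIRP1, an actin-binding protein of intercalated discs, was at background early, 5.19 on day 4 and 7.75, 8.55 and 9.33 late, at least 11.2-fold higher (adjusted p = 0.00285).

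Genes of calcium handling and excitability were partly detected: 14 of 29 passed, 6 rose and 1 fell, and without day 6 these counts were 3 and 0. Of the 14, 4 were detected on no array of 1 window, PLN among them, and so had to differ. HRC, a calcium-binding protein of the sarcoplasmic reticulum, was 4.87, 6.72 and 6.62 early, 7.36 on day 4 and 10.22, 10.48 and 10.94 late (4.48, SE 0.51, adjusted p = 0.00581). PLN, phospholamban, which restrains the calcium pump, was not detected through day 4 and was 7.57, 8.20 and 8.58 late, at least 8.35-fold higher (adjusted p = 0.00156). KCNH2, a repolarising potassium channel, rose from 4.63, 4.47 and 5.92 to 7.32, 7.24 and 7.79 (2.44, SE 0.41, adjusted p = 0.0173). The member that fell was GJA1, connexin 43, from 12.23, 12.59 and 12.43 through 11.28 to 9.92, 9.13 and 8.02 (-3.40, SE 0.45, adjusted p = 0.00946). TECRL, an enzyme-like protein of the endoplasmic reticulum known from inherited arrhythmia, was undetected through day 4 and 10.83, 12.14 and 10.68 late. This gene also passed the detection filter through the late days alone. It was at least 71.5-fold higher (adjusted p = 0.000462). From day 4 to the late window it rose by 6.16, and since it was undetected on day 4 too, this difference is no support.

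Several muscle genes of energy supply rose steeply. MB, myoglobin, was undetected through day 4 and 8.80, 9.02 and 10.28 late, at least 19.9-fold higher (adjusted p = 0.00156). PPARGC1A, a coactivator of mitochondrial genes, was likewise undetected through day 4 and 8.26, 9.48 and 9.81 late, at least 17.5-fold higher (adjusted p = 0.00248). CKM, the muscle creatine kinase, was 4.33, 5.25 and 7.25 early and 7.50, 10.45 and 12.29 late (4.47, SE 1.27, adjusted p = 0.0593). Of 19 genes of creatine and fatty acid metabolism 6 rose and 1, UCP2, fell (-1.34, SE 0.28, adjusted p = 0.0299). Of the 19, 3 were detected on no array of 1 window, MB and PPARGC1A among them, and so had to differ.

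Of 39 oxidative phosphorylation genes 3 rose, NDUFB5, UQCRC2 and ATP5F1C with changes of 1.01, 0.97 and 0.78, a share near the 7.68% called higher among all genes tested. The list median was 0.47, with a positive difference in 37. In glycolysis 5 of 23 rose: ENO3, the muscle enolase, from 6.94, 7.01 and 7.58 through 10.30 to 11.27, 11.75 and 12.80 (4.76, SE 0.40, adjusted p = 0.00243), the muscle isoforms PGAM2 and PFKM, PFKP and PFKFB3. Widely expressed members such as GAPDH at 0.30 and PKM at 0.31 were not called. Without days 3 and 6 the higher counts were 0 and 3.

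**Figure D3:**
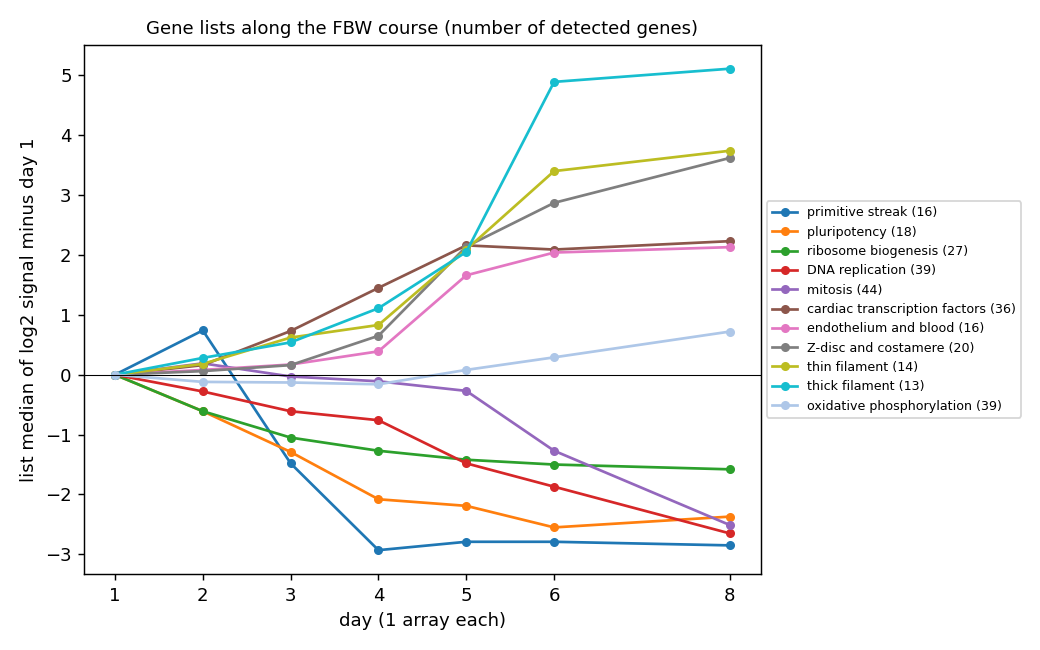
Median over the detected genes of each list of the log2 signal minus that of day 1, by day of the FBW course, 1 array per day. The primitive streak list is at -2.93 by day 4, the DNA replication list at -0.76 on day 4 and -2.65 on day 8, the mitosis list at -0.27 on day 5 and -2.51 on day 8, and the thick filament list at 1.11 on day 4 and 4.89 on day 6.

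Of 39 detected DNA replication genes 29 fell and 0 rose, with a median of -1.78. CDT1, which licenses replication origins, was 8.64, 9.06 and 8.51 early, 8.06 on day 4 and 6.91, 6.13 and 5.11 late (-2.68, SE 0.45, adjusted p = 0.0171). TK1, thymidine kinase, had 9.06, 8.84 and 8.24 early, 8.03 on day 4 and 7.17, 6.51 and 5.61 late (-2.28, SE 0.42, adjusted p = 0.0224). MCM10, a replication initiation factor, went from 9.38, 8.91 and 8.38 through 8.21 to 7.61, 6.84 and 5.52 (-2.23, SE 0.54, adjusted p = 0.0411). Each of these 3 was lower on every late day than on day 4, and lower on day 8 than on days 5 and 6. The count depended on single arrays: 9 were called without day 1, 3 without day 2, 1 without day 6, 13 without day 8 and 5 without days 3 and 6, against 33 without day 3 and 27 without day 5.

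Few mitosis genes were called, and their number depended on day 5. All 44 had a negative difference with a median of -1.42, and 3 fell: FOXM1, a transcription factor of mitotic genes, the kinase BUB1 and the centromere protein CENPM. That is near the 6.37% called lower among all genes tested. Without day 5 the count was 34, and it was 0 without day 6. The list median relative to day 1 was -0.11 on day 4 and -0.27 on day 5, then -1.27 on day 6 and -2.51 on day 8, while that of DNA replication was already -0.76, -1.48, -1.87 and -2.65. TOP2A, a topoisomerase of dividing cells, gave 11.07, 11.35 and 11.48 early, 11.55 on day 4 and 11.19, 10.25 and 8.70 late (-1.25, SE 0.58, adjusted p = 0.171). CDK1, the mitotic kinase, was 9.80, 9.78 and 9.91 early, 10.06 on day 4 and 9.86, 8.85 and 7.49 late (adjusted p = 0.197). In both genes the day 5 signal lay within the early range. The median SD within the late window was 1.08 for mitosis and 0.54 for DNA replication, against 0.22 and 0.31 within the early window.

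Of 16 genes that brake the cycle or form its cyclin D step 3 rose and 1 fell, against 0 and 0 without day 6. Among all genes tested 7.68% were called higher and 6.37% lower, so the lower count lies near that share. CDKN1C, a cyclin-dependent kinase inhibitor, was 5.86, 6.86 and 7.72 early, 8.53 on day 4 and 9.98, 9.60 and 9.61 late (2.92, SE 0.45, adjusted p = 0.0143). CCND1, cyclin D1, fell from 11.94, 11.05 and 9.58 to 8.69, 8.88 and 8.45 (-2.18, SE 0.55, adjusted p = 0.0462), and its day 4 signal of 7.85 was below all other days. CDKN1B and GADD45A were the other members that rose, by 1.15 and 1.51.

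Promoters of the replication genes are shown because 29 of 39 fell together. Sequences were at hand for 26 of the 29. The E2F-type motif TTTNNCGC, each N being C or G, was chosen after the fall of these genes had been seen and is therefore given without a test. It occurred in 61.5% of the 26 promoters (16 genes), against 3.33% of all 27305, 5.37% of those of all genes tested and 10.0% of those of all genes called lower. CCAAT occurred in 53.8% (14 genes) against 35.7% of all promoters and 37.2% of those of all genes tested. CAGCTG was in 19.2%, CACGTG in 15.4% and TATAAA in 7.69%, against 16.5%, 10.4% and 5.49% over all genes tested. Of the 26, 0 held GATAAG, the CArG box, TTTGAA or the MEF2 site. The 250 bases before the start of 3 of these genes follow, again picked after their values were seen. Capitals mark the E2F-type motif and CCAAT on either strand in MCM6 (chr2:135876444-135876693, minus strand) and PCNA (chr20:5126623-5126872, minus strand), and the E2F-type motif in CDT1 (chr16:88803539-88803788, plus strand). In MCM6 the motif occurs on both strands at 2 overlapping pairs of positions, and in PCNA and CDT1 it lies 59 and 35 bases before the start.
MCM6: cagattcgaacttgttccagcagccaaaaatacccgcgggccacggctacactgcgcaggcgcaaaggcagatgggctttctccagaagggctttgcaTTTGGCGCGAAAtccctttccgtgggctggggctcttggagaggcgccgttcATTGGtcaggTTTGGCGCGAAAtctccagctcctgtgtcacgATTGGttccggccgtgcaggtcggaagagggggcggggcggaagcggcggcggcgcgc
PCNA: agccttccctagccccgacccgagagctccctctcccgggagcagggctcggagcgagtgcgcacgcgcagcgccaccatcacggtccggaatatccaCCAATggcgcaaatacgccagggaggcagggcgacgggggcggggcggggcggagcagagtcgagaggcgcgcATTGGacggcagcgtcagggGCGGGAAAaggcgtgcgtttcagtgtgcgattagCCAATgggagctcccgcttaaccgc
CDT1: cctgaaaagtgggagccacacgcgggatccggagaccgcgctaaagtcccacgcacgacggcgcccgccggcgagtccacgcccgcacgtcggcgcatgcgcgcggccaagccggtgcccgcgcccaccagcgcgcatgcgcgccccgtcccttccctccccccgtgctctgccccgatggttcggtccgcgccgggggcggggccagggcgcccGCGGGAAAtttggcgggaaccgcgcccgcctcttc
MCM6, a subunit of the replicative helicase, had 11.82, 11.51 and 11.19 early, 10.74 on day 4 and 10.27, 9.94 and 9.18 late (-1.71, SE 0.31, adjusted p = 0.0207). PCNA, the sliding clamp of DNA polymerases, had 11.77, 11.22 and 11.07 early, 10.91 on day 4 and 9.82, 9.61 and 9.09 late (-1.85, SE 0.26, adjusted p = 0.0118).

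Ribosome biogenesis genes went down earlier in the course. Of 27 detected members 8 fell, 0 rose and all 27 had a negative difference, with a median of -0.99. MYC, which drives this programme, was 9.57, 9.58 and 7.22 early, 5.89 on day 4 and 5.82, 6.34 and 5.86 late (-2.78, SE 0.64, adjusted p = 0.0367). NOP56, a component of the machinery that modifies ribosomal RNA, had 12.08, 11.00 and 10.68 early and 9.95, 9.72 and 9.75 late (-1.45, SE 0.35, adjusted p = 0.0416). The list median relative to day 1 was -1.05 by day 3 and -1.58 on day 8, so most of the difference was in place before the late window. Among 21 chromatin regulators 5 fell and 1 rose. HELLS and UHRF1, which act with maintenance DNA methylation, had changes of -2.29 and -2.08, and SMARCD3, the cardiac BAF60c subunit, rose by 2.69 (SE 0.66, adjusted p = 0.0429). Without days 3 and 6 the lower counts were 2 and 1.

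Some markers of endothelium and blood also rose late. Of 33 endothelium and blood genes 16 were detected on enough arrays, 10 of these rose and 0 fell, with a median of 2.21. Of the 16, 7 were detected on no array of 1 window, CD34, CDH5 and PLVAP among them, and so had to differ. The summed linear signal of the list was between 680 and 995 early and between 2170 and 3400 late, against 10100 to 14100 and 47300 to 77500 for the thick filament. The thick filament list holds MYL6 and MYH10, with early means of 12.86 and 11.99 on the log2 scale, against 4.63 for MYH6. Its early sum is therefore not a level of heart sarcomere RNA. CD34, a surface marker of endothelial and blood progenitors, was 4.62, 4.39 and 4.79 early, 5.21 on day 4 and 8.99, 9.45 and 9.42 late, at least 18.7-fold higher (adjusted p = 0.000238). CDH5, the endothelial cadherin, was undetected through day 4 and 7.36, 8.42 and 8.65 late, at least 8.49-fold higher (adjusted p = 0.00285). PLVAP, a protein of endothelial pores, behaved alike with 6.60, 7.32 and 7.50 late. The called members stood at a median 6.7% of the way on day 4, the lowest of the lists with several calls. PECAM1, TAL1, RUNX1, GATA1 and PTPRC were not detected on 3 arrays, and KDR, a receptor of early vascular and cardiac mesoderm, was 5.29 to 6.37 early, 7.20 on day 4 and 5.95 to 6.77 late without a call. Calls fell to 8 without days 3 and 6 and to 7 without day 6, and the part of these cells in the other results was not tested.

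Some smooth muscle and matrix genes rose too. Of 11 smooth muscle genes 4 rose, against 2 without days 3 and 6 and 1 without day 6. ACTA2, smooth muscle actin, which early heart muscle also expresses, went from 7.09, 6.32 and 6.40 through 7.89 to 10.87, 12.71 and 13.36 (5.71, SE 0.62, adjusted p = 0.00473). MYH11 at 0.78 and TAGLN at 0.62 were not called. Of 29 collagen and matrix genes 7 rose and 0 fell. Of the 29, 4 were detected on no array of 1 window, COL3A1 and LUM among them, and so had to differ. COL3A1, a fibrillar collagen, was at background early, 8.33 on day 4 and 10.84, 13.00 and 11.27 late, at least 100-fold higher (adjusted p = 0.00139). LUM, a small matrix proteoglycan, was highest on the same day, with 7.10, 10.61 and 8.45 late, at least 12.7-fold higher (adjusted p = 0.0256). Of 14 fibroblast and epicardium genes 0 were called by limma, 7 had an unadjusted p under 0.05, and 1 was called without days 3 and 6. TBX18, an epicardial factor, was 7.03, 8.46 and 5.33 late after background through day 4 (adjusted p = 0.0644).

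Endoderm, neural and amnion lists were mixed, where 7.68% were called higher and 6.37% lower among all genes tested. In endoderm and liver 3 of 17 rose and 1 fell. APOA1, an apolipoprotein of liver and yolk sac, was 5.17, 5.82 and 5.57 early and 6.94, 9.03 and 9.49 late (2.97, SE 0.64, adjusted p = 0.0315), while FOXA2, a defining endoderm factor, had a difference of 0.33. Of 11 neural genes 2 rose and 2 fell, LHX2 from 4.52, 5.20 and 5.19 to 9.38, 10.94 and 8.16 (4.53, SE 0.66, adjusted p = 0.0126) and ZIC2 as described. Of 12 amnion and surface ectoderm genes 2 rose and 1 fell, and IGFBP3 moved from background through 9.83 on day 4 to 8.42, 10.08 and 10.27, at least 23.2-fold (adjusted p = 0.00334). Summed signals of these lists ran from 3330 to 9300 early and stayed at 3660 late for endoderm, from 5580 to 11700 and from 3440 to 5420 for neural genes, and from 2490 to 17400 and from 9700 to 14300 for amnion. The amnion list holds HAND1 and ISL1, which are also heart genes. HAND1 was 13.70 on the log2 scale on day 3 and 13.12 on day 8, so this sum is not a level of amnion cells. Of 18 skeletal muscle genes 4 were detected and 0 called by limma, with 3 at an unadjusted p under 0.05, and MYOD1 and MYOG were not detected on 3 arrays. The part of such cells in the results was not tested.

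Day 4 lay between the windows for most called genes. Among the genes called higher, the median day 4 position was 47.6% of the way from the early to the late mean, with quartiles of 22.3% and 71.4%, and among those called lower it was 48.9%, with quartiles of 33.1% and 67.3%. The position moved with the days used: without days 3 and 6 the medians were 69.3% and 76.1%, and leaving out 1 day gave as little as 33.6% and 33% without day 5 and as much as 69.6% and 67.1% without day 3. Of the 651 higher genes with a change of at least 1 log2 unit, 150 stood under 20% on day 4 and 115 over 80%. TBX2 at 79.7%, BMP5 at 74.7% and MYL4 at 74.5% were nearer to their late mean, and MB, TECRL, PLN, CDH5 and SMPX, all at 11.1% or less, were close to their early mean. The tests against day 4 rest on its 1 array: 3 genes differed between day 4 and the early window (0.0269%) and 16 between the late window and day 4 (0.144%), with 847 and 900 at an unadjusted p under 0.05. Without day 3 the first count was 232, and without day 5 the second was 39. In the main fit the genes of the first count were MYH6, DIO2 and TAFA4, higher on day 4 by 4.51, 3.33 and 3.62. Those of the second included CD34, TECRL and UNC45B, a myosin chaperone, higher late by 4.07, 6.16 and 2.68. MYH6 and DIO2 were detected on no early array and TECRL not on day 4, so these differences are no support.

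**Figure D4:**
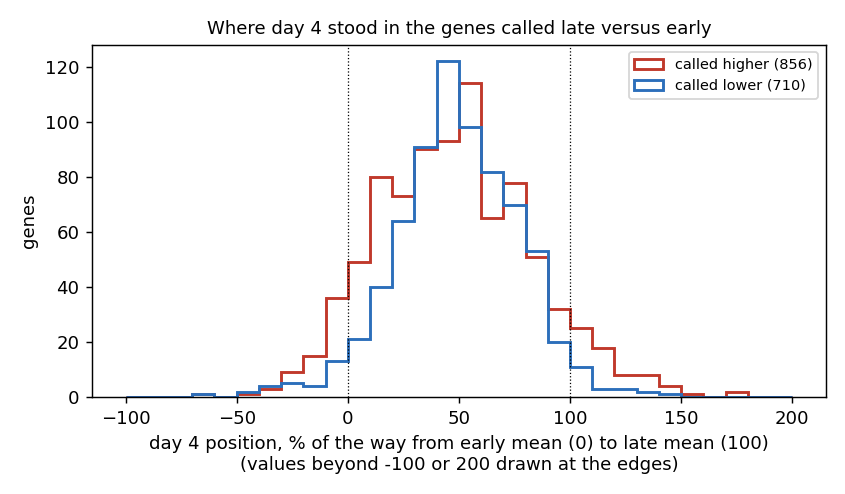
Number of genes by the place of the day 4 signal between the early mean (0) and the late mean (100), for the 856 genes called higher and the 710 called lower, in steps of 10. Both groups centre near the middle, with medians of 47.6% and 48.9%, and the higher group spreads more widely.

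Some genes had their extreme on day 4. In 11.2% of the genes tested day 4 was above all 6 other days, by at least 1 log2 unit in 21, and in 8.86% it was below all 6, by as much in 4. DIO2, which activates thyroid hormone, was 7.95 on day 4 and at most 5.28 on any other day. PANX2, a pannexin channel, reached 11.32 on day 4, with 7.79 on day 3 and 9.47 on day 5. SMOC1, a matrix protein that modulates BMP signals, reached 7.79, and DNAH2 and ATP6V1B1 peaked at 9.62 and 8.80. Below all other days were BHLHE40, a hypoxia-inducible repressor, at 4.43 against 5.92 on day 3 and 6.34 on day 5, STC1, a secreted hormone, at 6.90 against 7.94 and 8.24, and HK2, hexokinase 2, at 7.48 against 8.51 and 8.76. ADAMTSL2 and HAGHL also had their lowest signals on day 4, at 4.39 and 4.77. Of the 23 glycolysis genes 8 were lowest on day 4, of 39 oxidative phosphorylation genes 14, and of 24 sterol genes 8, while 0 of 23 and 0 of 39 in the first pair of lists were highest then. ALDOA, aldolase, shows the size of this dip, with 12.21, 12.66 and 11.36 on days 1 to 3, 11.01 on day 4 and 12.79, 12.80 and 13.71 late. These are single arrays without a repeat of day 4.

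Genes that switched inside a window were missed by the window comparison. Of 1893 genes whose highest and lowest days differed by at least 2 log2 units, 742 were called. The uncalled ones had their highest signal on day 1 in 275 cases, day 2 in 165, day 3 in 130, day 4 in 155, day 5 in 74, day 6 in 117 and day 8 in 235. H19, an imprinted noncoding RNA, was 4.76, 4.68 and 12.65 on days 1, 2 and 3 and 12.27, 12.87 and 11.16 late (adjusted p = 0.156). HOXB2, a homeobox gene of the anterior HOX cluster, was 4.24, 6.08 and 8.95 early, 10.82 on day 4 and 9.92, 9.10 and 8.72 late (adjusted p = 0.122). SNAI2, a factor of cell migration, rose within the early window to 10.54 on day 3 and was 7.12 on day 8 (adjusted p = 0.767). Nearest to the threshold were HAUS5, PLS1 and POP7 just inside, with changes of -0.70, -1.22 and -1.07, and WLS, DDX1 and AQR just outside, with 1.10, -0.50 and -0.66.

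The same late minus early change was then set against that in each partial arm, over 12662 genes detected on at least 3 of the 28 induced arrays, with day as a block. The 3 comparisons share the FBW arrays. In BW, which lacked FGF2, the change was higher than in FBW for 224 genes (1.77%) and lower for 201 (1.59%). In FB, which lacked the WNT activator, it was higher for 1123 (8.87%) and lower for 1182 (9.34%), and in FW, which lacked BMP4, for 1233 (9.74%) and 1287 (10.2%). Without days 3 and 6 the totals were 1 for BW, 754 for FB and 910 for FW, against 425, 2305 and 2520. Without the day block they were 60, 1114 and 1244. The 1 gene still called in BW was ZSCAN10 (2.57, adjusted p = 0.021), so every BW difference named below lost its call without days 3 and 6, and so did HAND1 in FW.

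Sarcomere genes carried large differences in FB and FW. MYH6 changed by 9.35 in FBW, 8.44 in BW, 3.95 in FB and 1.17 in FW, and the differences from FBW had adjusted p of 0.596, 0.000402 and 1.17e-05. TECRL stood apart in all 3 arms, with 2.42 in BW, 0.11 in FB and -0.06 in FW against 6.92 (adjusted p = 0.00038, 4.89e-07 and 4.21e-07). NKX2-5 changed by 5.35, 1.94 and 1.74 against 6.65 (adjusted p = 0.0241, 2.92e-07 and 1.8e-07). The list counts that follow cover only members detected on at least 3 of the 7 FBW arrays. Genes detected mainly in other arms are left out, so the counts can lean towards genes that change in FBW. They also rest on another set of genes than the shares over all 12662. Over the thick filament list 12 of 13 genes had a smaller change in FB and 12 in FW, and 1 in BW. For the Z-disc the counts were 14, 15 and 2 of 20, and for endothelium and blood 9, 8 and 0 of 16. CD34 changed by 4.12 in BW, 1.16 in FB and 1.53 in FW, against 4.69.

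The replication list differed in all 3 arms. The change was less negative than in FBW for 18 of 39 genes in BW, 32 in FB and 32 in FW, and for mitosis in 1, 22 and 31 of 44. These counts too cover only members detected on enough FBW arrays. CDT1 changed by -0.77 in BW, -0.78 in FB and -0.42 in FW, against -2.68 (adjusted p = 0.00494, 0.000769 and 0.000163). ZIC2 fell most in FBW, with -1.13, -1.55 and -1.29 in the other arms against -6.67 (adjusted p = 0.00153, 0.000388 and 2e-04). CYP26A1 had differences of the opposite sign, 1.21 in BW, 1.57 in FB and 1.54 in FW against -4.60 (adjusted p = 0.0372, 0.00758 and 0.00706). GJA1 changed by -1.01, -0.09 and -0.23 against -3.40 (adjusted p = 0.0012, 9.87e-06 and 1.22e-05). HAND1 had a larger positive change in FW than in FBW, 7.88 against 2.04, and TFAP2A, a surface ectoderm factor, had 5.70 against -0.50 (adjusted p = 0.00346 and 0.00255). EOMES had -6.03 in BW, -4.26 in FB and -2.68 in FW against -6.76, of which FW passed (adjusted p = 0.739, 0.0847 and 0.00791).

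**Figure D5:**
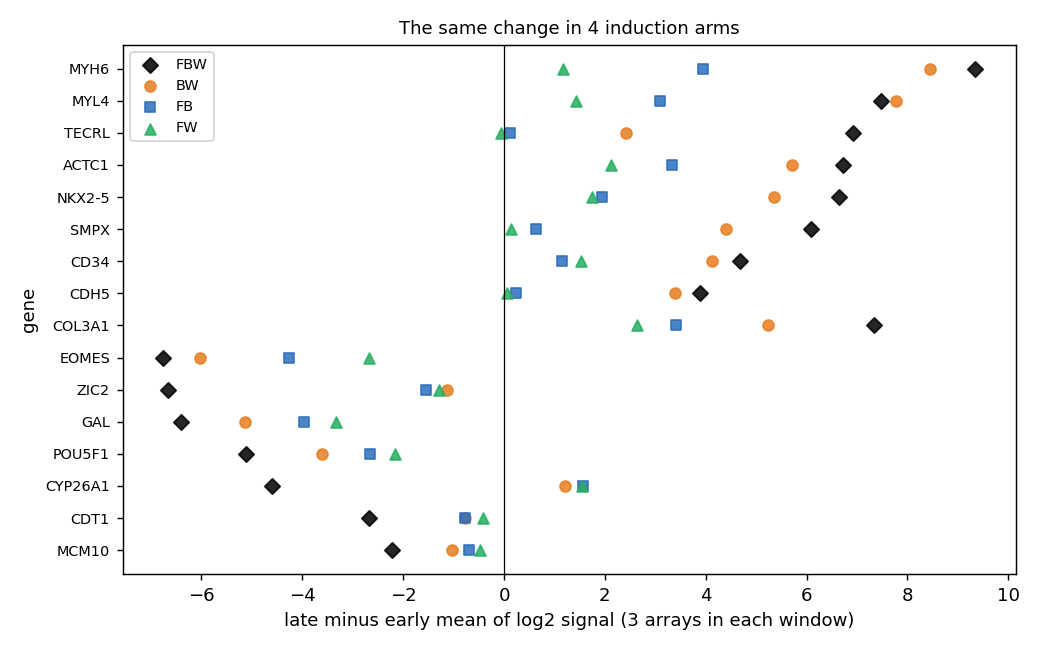
Late minus early mean of the log2 signal of 16 genes in FBW (diamonds), BW (circles), FB (squares) and FW (triangles), 3 arrays in each window of each arm. For MYH6, NKX2-5 and CD34 the BW points lie near those of FBW and the FB and FW points nearer to 0, while for ZIC2, CYP26A1 and CDT1 all 3 other arms lie away from FBW.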

How the data were processed

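Expression was measured on 29 Illumina HT-12 arrays of HuES6 cells. The raw files deposited by the authors hold a probe intensity and a detection p-value per array, exported, per the submitters' processing notes, by GenomeStudio, version not given in the sources used here. Processed intensity values in the authors' deposited table are of unstated scale and served as an alternative. Of 47323 probes, 30113 have 1 gene symbol, 8 several and 17202 none in the platform annotation.

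The neqc method (limma 3.58.1 in R 4.3.3, offset 16) corrected the background of all 29 arrays, normalised them by quantiles and gave log2 values. The 6691 genes with more than 1 probe took the one brightest on average over 29 arrays, and 48 other detected probes of 38 named genes held 0 that moved the opposite way by 0.5 or more. Sizes differed in some genes and not in others. Other probes gave 0.43 and 0.60 for DSP against 1.20, -1.05 for FGFR4 against -2.26 and -2.18 for PMAIP1 against -3.79. For MYC the other probe gave -2.77 against -2.78. Genes were tested with lmFit and eBayes with a trend, two-sided, with early, day 4 and late groups in the 7 arrays (4 residual degrees of freedom). The arms were compared in 28 arrays with day as a block (12 residual degrees of freedom). The labels give the day of each array, and this day defined the block. Per-sample columns of no known sample numbered 0. The fits were tested on simulated data.

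Genes were named by a rule: the 10 largest rises and falls, up to 3 per list with 1 in the other direction, a set of reference genes, the 5 farthest above and below on day 4, the 5 largest differences per arm and direction, and the 3 nearest the threshold on each side. The lists, the naming rule and the windows were chosen with earlier results of these data known. Named outside the rule, after their values were seen, were ALDOA, AXIN2, CDX1, DKK3, DUSP6, FOXA2, GAPDH, GATA4, H19, HAND2, HEY1, HOXB2, ID1, ID3, ISL1, LIN28A, MCM6, MEF2C, MYH10, MYH11, MYL3, MYL6, MYOM1, NPPB, PCNA, PFKFB3, PFKP, PKM, PODXL, RSPO3, SNAI2, TAFA4, TAGLN, TBX18, TBX5, TTN, UNC45B, VEGFA, WNT3, WNT5A, WNT5B and ZFP42, and the E2F-type motif was likewise chosen after seeing the data. Alternatives covered normalisation, detection filters, probe choice, spread, place of day 4, arrays in the fit and each day left out.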

Additional observations from a re-analysis of the deposited data

Results flagged for a closer look

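The changes from the early to the late window differed between the full course and each partial arm by a test of the difference itself, limma on 28 arrays with day as a block and Benjamini-Hochberg adjustment. The values below are the arm's late minus early change less that of FBW, on the log2 scale.

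In BW, without FGF2, 425 genes differed. CYP26A1 was higher by 5.81, ZIC2 by 5.54, TTYH1, a chloride channel protein, by 4.22 (SE 0.77, adjusted p = 0.00832), the matrix protease MMP9 by 3.85 (SE 0.99, adjusted p = 0.0451) and OLFM1, an olfactomedin, by 3.55. The changes that were lower in BW were those of TECRL (-4.5), the kinase SGK1 (-3.17), the sodium pump subunit ATP1B2 (-3.02), the cation transporter SLC47A1 (-2.98) and KLHL41, a sarcomere-associated kelch protein (-2.93). KLHL41 changed by 3.95 in FBW and 1.02 in BW. All 10 of these kept their sign and lost their call without days 3 and 6.

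In FB, without the WNT activator, 2305 genes differed. CYP26A1 was higher by 6.18, ZIC2 by 5.12, DLX5, a homeobox gene detected on too few FBW arrays to be tested there, by 5.03, GABRP, a GABA receptor subunit, by 4.8 and EPHA4, an ephrin receptor, by 4.56. EPHA4 changed by -2.07 in FBW and 2.49 in FB (SE of the difference 0.77, adjusted p = 0.000923) and lost its call without days 3 and 6. TECRL was lower by 6.81 (-6.81), the zinc transporter SLC30A3 had -6.1, TBX2 -5.72, SMPX -5.47 and MYH6 -5.41.

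In FW, without BMP4, 2520 genes differed. TFAP2A was higher by 6.2, CYP26A1 by 6.14, HAND1 by 5.84, DLX5 by 5.63 and ZIC2 by 5.38. MYH6 had -8.19, TECRL -6.98, SLC30A3 -6.13, MYL4 -6.04 and SMPX -5.97. SLC30A3 changed by 4.81 in FBW and -1.33 in FW (SE of the difference 0.75, adjusted p = 5.67e-05). HAND1 lost its call without days 3 and 6.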

How the results depend on the processing

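The 1566 genes called between the windows became 963 without a detection filter, 762 with day 4 joined to the early window, 529 with it joined to the late window, 3059 with day as a straight line, 4309 in a fit of all 28 arrays, 543 without days 3 and 6, and 158 to 2578 with 1 day left out. Array weights gave 6946, but their fit did not converge and the weights ran from 0.189 on day 1 to 6.54 on day 6. The other 7 settings gave 1109 to 1578. The median day 4 position of the higher genes was 59.6% with array weights, 69.3% without days 3 and 6 and 33.6% to 69.6% with 1 day left out, and that of the lower genes was 76.1% without days 3 and 6 and 33% to 67.1% with 1 day left out. Genes differing between day 4 and early numbered 3555 with array weights and 0 to 232 with 1 day left out, and between late and day 4 they numbered 2739 and 1 to 39.

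Arm differences in BW, FB and FW numbered 60, 1114 and 1244 without the day block, 1905, 4790 and 4658 with array weights, 1, 754 and 910 without days 3 and 6, and 153, 744 and 808 with only FBW and the other arm. With 1 day left out they ranged from 38 to 466, from 1010 to 2371 and from 1157 to 2510. Genes at least 2-fold apart in the 6 steps from day 1 to 8 numbered 412, 411, 204, 227, 95 and 166 under quantile normalisation without background correction, and at 4-fold 170, 221, 98, 98, 32 and 49.

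Of the named genes' values 1997 kept their direction and side of the threshold, 497 lost the call and 53 gained one. The 7 reversals were in uncalled genes: GDF3 at 0.21 and KDR at -0.23 with array weights, MMP9 at 0.03 with day 4 joined to the early window, and, with 1 day left out, GDF3 (-1.77 to 0.57), HAND1 (-0.13 to 3.52), TFAP2A (-1.43 to 0.50) and MMP9 (-1.38 to 0.25), the first 3 without day 1 and MMP9 without day 5. Called genes could not reverse when days were left out, since their windows did not overlap. For arm differences of named genes 281 values kept their call and 49 lost it. Of the list counts 421 stayed within 1.5 times and 227 moved further. The cause of these shifts was not tested. About 35.4% to 39.7% of probes were detected on an array, so changes among dim genes could not be measured.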

Other observations

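Secreted factors of the developing heart rose in part. Of 18 detected members 6 rose and 0 fell, with a median change of 1.82. Of the 18, 3 were detected on no array of 1 window, TGFB2 and WNT2 among them, and so had to differ. TGFB2, a ligand that drives cell transformation in heart valves, was 4.41, 4.21 and 4.40 early, 6.76 on day 4 and 8.22, 9.74 and 8.95 late, at least 15.1-fold higher (adjusted p = 0.00206). VEGFA, the growth factor of vessels, went from 5.37, 5.05 and 6.37 through 7.58 to 7.89, 8.02 and 8.36 (2.50, SE 0.36, adjusted p = 0.0123). DKK3 rose by 1.84 and NPPB, which encodes a natriuretic peptide, by 1.30. Without days 3 and 6, 5 were called.

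Of 10 detected HOX genes 2 rose and 8 were not called, and 6 had their highest signal on day 4. Among all genes tested 7.68% were called higher, and 11.2% had their highest signal on day 4. HOXB5 was 5.14, 5.18 and 6.99 early, 10.84 on day 4 and 9.94, 10.17 and 7.87 late (3.56, SE 0.74, adjusted p = 0.0297). HOXB4 was at least 1.79-fold higher late. Of the 10, 3 were detected on no array of 1 window, HOXB4 among them, and so had to differ. Called members numbered 4 without days 3 and 6 and 0 without day 6.

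Few lipid and junction genes were called, where 7.68% were called higher and 6.37% lower among all genes tested. Of 24 sterol and fatty acid genes SC5D, a late sterol enzyme, rose from 8.84, 8.61 and 10.44 through 12.28 to 12.12, 11.23 and 12.02 (2.49, SE 0.50, adjusted p = 0.0274), while ACLY, FASN and the regulator SREBF1 fell by 1.12, 1.22 and 1.47. Of 20 epithelial junction genes the desmosome genes PKP2 and DSP rose (3.23 and 1.2) and the claudin CLDN10 fell by 2.31. In these lists 0 of the higher and 0 of the lower calls were made without day 6.

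Among 12 retinoic acid genes RARA, a nuclear receptor, rose by 1.41 (SE 0.24, adjusted p = 0.0174), TTR, a retinol carrier protein, was at least 1.69-fold higher, and CYP26A1 fell. Of 10 detected segmentation genes CYP26A1 was the only call. RSPO3, which enhances WNT signals, had 5.15, 11.46 and 6.46 early, 6.98 on day 4 and 10.45, 11.32 and 12.43 late (adjusted p = 0.141), so it was high on day 2 and again from day 5. Of 16 imprinted genes CDKN1C rose and GRB10, a growth factor receptor adaptor, fell by 0.74. Other detected probes of GRB10 gave -0.06 and -1.01. Of 19 p53 and stress genes GADD45A and DDIT4 rose by 1.51 and 0.88, and PMAIP1 fell. The imprinted and stress counts lie near the 7.68% called higher and 6.37% called lower among all genes tested. The retinoic acid and segmentation counts stand beside the same shares and rest on few genes.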
